A study of Homo sapiens with 2 samples.

Results

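The genes described here are 42 genes of glucose uptake, glycolysis, the pentose phosphate pathway, lactate and pyruvate metabolism, chosen by name from textbook pathway membership among the 27685 gene rows of the deposited table. All 42 were listed there, and 40 of them reached a mean of 1 FPKM over the libraries compared, the filter that 13047 genes passed. The choice of the 42 was made with earlier results of these data known. FPKM is the number of fragments per kilobase of exon, scaled to library size, and so a level per transcript length, by which genes can be compared with each other in a library.

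RNA-seq was performed on untreated H2087 cells (1 library) and untreated H596 cells (1 library), both established human cell lines whose labels give lung adenocarcinoma as the cell type. Both were grown in the same RPMI medium with fetal bovine serum. The H596 library went against its label by some lineage markers, given after the pathway results. NKX2-1 and NAPSA were near 0 and most listed squamous markers were high, although gland keratins were present. No other H596 library was at hand to compare it with. The depth was 46961500 estimated counts for the H2087 library and 55387847 for the H596 library. Neither cell line was replicated, so no difference has a p-value or a check against the spread between cultures. The values in parentheses after an FPKM value are the gene's count and a 95% Wilson interval, computed from its count share and carried over to FPKM. A fold is a ratio of FPKM values, with an exact interval from the counts where one is given. Both kinds of interval cover counting error only.

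Glycolysis splits glucose into pyruvate in the cytosol and yields ATP and NADH. The pyruvate is then either reduced to lactate by lactate dehydrogenase and exported by monocarboxylate transporters, or oxidised in mitochondria by the pyruvate dehydrogenase complex, which the pyruvate dehydrogenase kinases switch off by phosphorylation. The pentose phosphate pathway branches off after the first step and supplies NADPH and ribose. Tumor cells often carry high levels of these enzymes and release lactate even when oxygen is present, and many of the genes are targets of hypoxia-inducible factor and of MYC. Most steps have several isozymes encoded by separate genes, which differ between tissues and in regulation.

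Pyruvate kinase shows how isozymes can also come from a single gene. PKM (gene 5315, chr15:72491370-72523965 of hg19, minus strand) uses either of a pair of mutually exclusive coding exons, of which M1 is typical of muscle and brain and M2 of proliferating cells. These exons are printed because they define the M1 and M2 forms to which some PKM transcripts are assigned further on. Each is exon 9 of its transcript and 167 bases long, and 105 of the bases (62.9%) are the same. Capitals mark the bases that differ between the exons, which were read 5′ to 3′ on the minus strand from GRCh37.
PKM M1 exon, chr15:72495363-72495529: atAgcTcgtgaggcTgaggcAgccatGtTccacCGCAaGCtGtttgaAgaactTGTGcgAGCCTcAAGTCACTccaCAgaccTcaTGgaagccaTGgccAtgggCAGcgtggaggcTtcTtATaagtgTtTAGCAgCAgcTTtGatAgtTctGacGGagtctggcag
PKM M2 exon, chr15:72494795-72494961: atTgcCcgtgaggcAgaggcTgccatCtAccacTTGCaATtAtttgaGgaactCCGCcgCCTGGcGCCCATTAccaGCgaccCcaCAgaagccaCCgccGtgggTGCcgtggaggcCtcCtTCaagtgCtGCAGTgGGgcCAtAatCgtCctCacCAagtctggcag

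The levels of the 42 genes were compared between the cell lines first. Of the 40 genes that passed the filter, 19 were at least 2-fold lower in H596 than in H2087 on the log2(FPKM + 1) scale (47.5%), and 14.2% of all 13047 tested genes were. None of the 40 was at least 2-fold higher, and 18.2% of all tested genes were. The remaining 21 differed by less than 2-fold. The median difference of the 40 genes, H596 minus H2087, was -0.90 (log2), with quartiles of -1.54 and 0.03, beside a median of 0.12 over all tested genes, and 72.5% of the genes lay below 0 compared with 44.9% of all tested genes. Because all 40 share the 2 libraries, they are not replicates of the difference. They were also chosen with earlier results of these data known, so the counts are a description only.

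The abundance of the genes differs from that of most genes, so the comparison was repeated within ranges of level. Among the 680 genes at a mean of 100 FPKM or more, 22.5% were at least 2-fold lower in H596 and the median difference was -0.30. Of the 11 pathway genes in that range, 6 were at least 2-fold lower, with a median of -1.08. All 11 were below 0, beside 62.9% of all tested genes in that range. Among the 29 pathway genes under that level, 13 were at least 2-fold lower, beside 13.7% of all tested genes under it, and the median was -0.68 beside 0.14. In both ranges of level the median of the pathway genes lay below that of all tested genes. The lower range is wide, and the genes in it are not matched in level. A mean of 10 FPKM was reached by 33 of the 40 pathway genes and by 6708 of the 13047 tested genes. Among these the medians were -0.92 and 0.03.

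**Figure D1:**
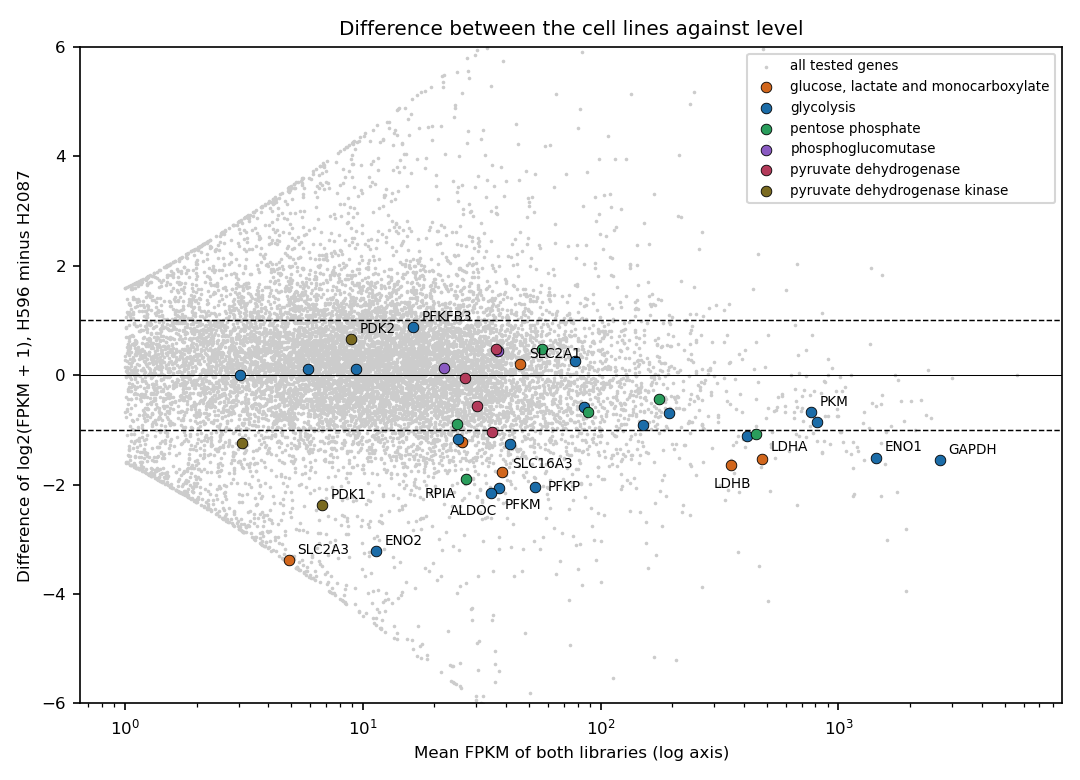
Difference of log2(FPKM + 1), H596 minus H2087, against the mean FPKM of both libraries on a log axis for the 13047 tested genes (grey) and the 40 pathway genes that passed the filter (coloured by pathway part); dashed lines mark 2-fold and 30 genes lie outside the plotted range. The coloured points at the right, including GAPDH and ENO1, all lie below 0, and none of the 40 lies above the upper dashed line.

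Summed over the 42 genes, the level was 12279 FPKM in H2087 and 5361 FPKM in H596, 2.29-fold lower. This was 2.62% and 1.3% of the FPKM of all genes, and without GAPDH, the most abundant of the 42, it was 1.77% and 0.971%. The total FPKM over all genes was itself 1.14-fold higher in H2087, and as shares of the summed FPKM the pathway genes were 2.02-fold lower. The median difference of the 40 genes moved with the scaling, to -0.73 in TPM, -1.06 with TMM-scaled counts and -1.02 after centring on all tested genes. The median of all tested genes moved in the same direction, from 0.12 as deposited to 0.30, 0.01 and 0. In bulk RNA, a lower level of these transcripts in all cells and a lower number of expressing cells cannot be told apart. In the plot of levels by gene, the H596 point lies to the left of the H2087 point along most of the pathway.

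**Figure D2:**
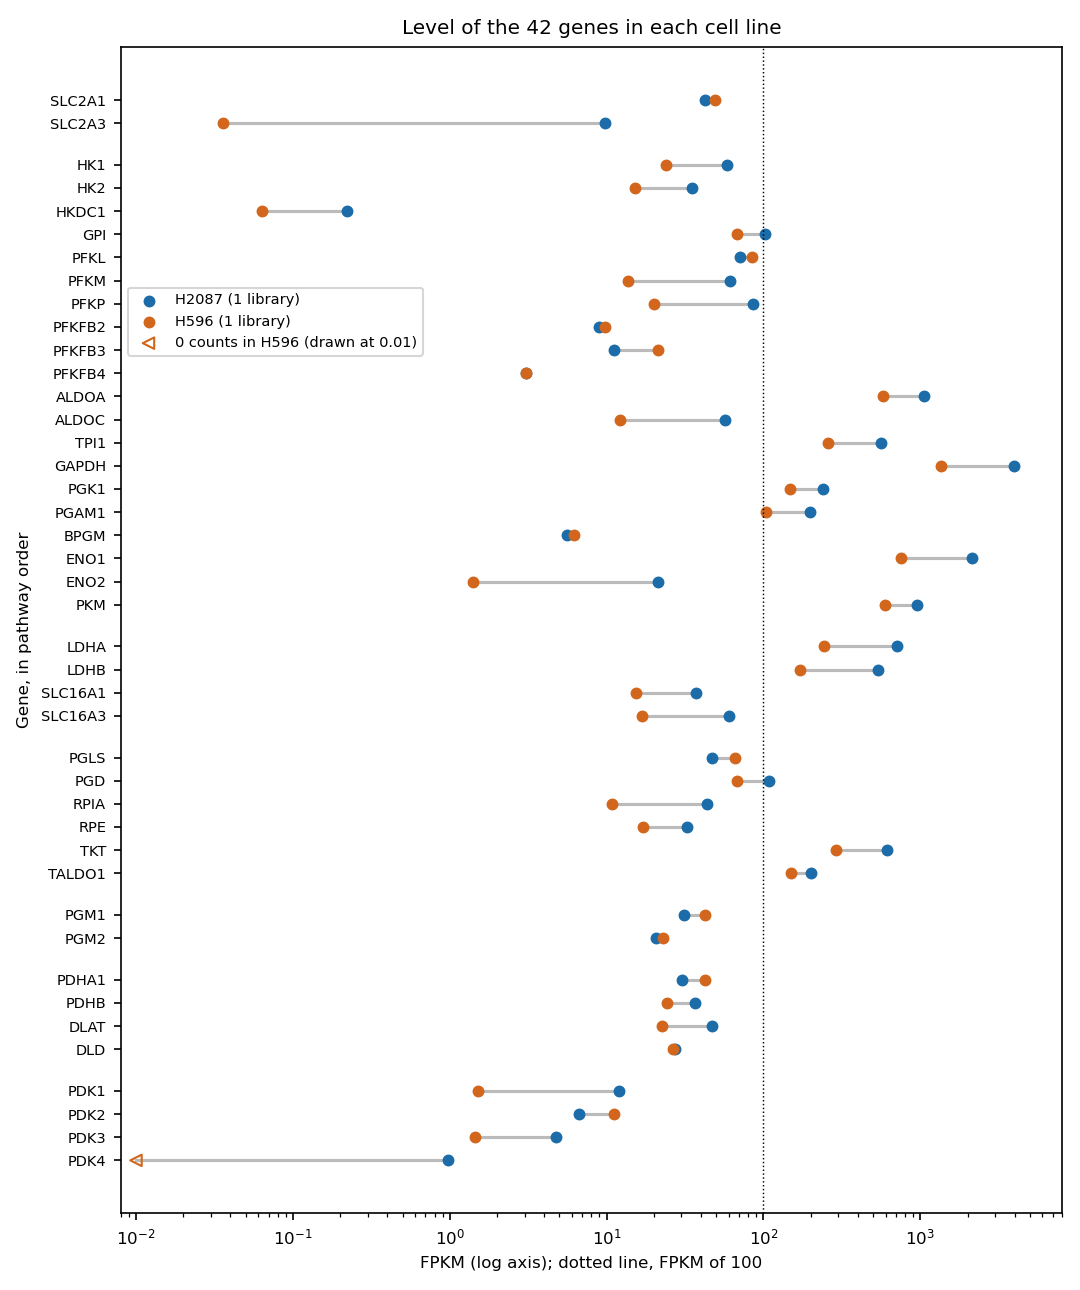
Level of each of the 42 genes in FPKM (log axis), in pathway order, in the H2087 library (blue) and the H596 library (orange); the dotted line marks an FPKM of 100 and an open triangle a count of 0. All 11 genes at a mean of 100 FPKM or more over both libraries were lower in H596, beside 62.9% of all tested genes at that level. The highest of them was GAPDH (3972 and 1355 FPKM). Below that level some genes were higher in H596, among them PFKL (70.7 and 84.8 FPKM).

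Glucose enters cells through facilitative transporters. SLC2A1, the transporter present in most proliferating cells, was at 42.7 FPKM in H2087 and 49.2 FPKM in H596, a difference of 0.20 on the log2 scale. SLC2A3, a high-affinity transporter known from neurons, was at 9.74 FPKM in H2087 (1840 counts, 9.31 to 10.2) and at 0.0358 FPKM in H596 (8 counts, 0.0181 to 0.0707), 272-fold lower (95% interval 138 to 631). Its difference on the log2(FPKM + 1) scale, -3.37, was the most negative of the 40 genes. The summed level of the transporters was nevertheless close in the lines, 52.4 and 49.3 FPKM, because SLC2A1 made up 81.4% of it in H2087 and 99.9% in H596.

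Hexokinases trap glucose in the cell by phosphorylation. HK1, the widely expressed form, was at 59.0 FPKM in H2087 (10172 counts, 57.8 to 60.1) and at 24.0 FPKM in H596 (4894 counts, 23.3 to 24.7), 2.46-fold lower. HK2, an inducible form that is often raised in tumors, was at 35.2 FPKM in H2087 (11953 counts, 34.5 to 35.8) and at 15.1 FPKM in H596 (6097 counts, 14.8 to 15.5), 2.32-fold lower. Both forms were lower by a similar factor, and HK1 was 1.68 times the level of HK2 in H2087 and 1.58 times in H596. HKDC1, a hexokinase-like gene, did not pass the filter, with 0.223 FPKM (40 counts) and 0.0640 FPKM (14 counts). Phosphoglucose isomerase, GPI, followed at 102 and 68.2 FPKM, under the 2-fold threshold at -0.57.

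Phosphofructokinase 1 commits the sugar to glycolysis and is the main point of control. The muscle-type subunit PFKM was at 60.8 FPKM in H2087 (9422 counts, 59.5 to 62.0) and at 13.8 FPKM in H596 (2567 counts, 13.2 to 14.3), 4.41-fold lower. The platelet-type subunit PFKP was at 86.0 FPKM in H2087 (10765 counts, 84.4 to 87.6) and at 20.04 FPKM in H596 (3022 counts, 19.3 to 20.8), 4.29-fold lower. The liver-type subunit PFKL did not share this: it was at 70.7 FPKM in H2087 and 84.8 FPKM in H596, 1.20-fold higher with an interval of 1.17 to 1.23. The make-up of the step therefore differed, with PFKP at 39.5%, PFKL at 32.5% and PFKM at 27.9% of the summed FPKM in H2087 and PFKL at 71.5%, PFKP at 16.9% and PFKM at 11.6% in H596. When each gene was represented by its single highest transcript, PFKL led in both lines, since the PFKP signal of H2087 was divided among several transcripts.

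Phosphofructokinase 2 enzymes make or remove the sugar bisphosphate that activates phosphofructokinase 1. PFKFB3, the form with the strongest synthetic activity, was at 11.2 FPKM in H2087 and 21.3 FPKM in H596, 1.91-fold higher (95% interval 1.82 to 2.005) and the highest difference of the 40 genes at 0.88. PFKFB2 was at 8.96 and 9.77 FPKM and PFKFB4 at 3.04 and 3.07 FPKM, and the sign of the small difference of either depended on how the libraries were scaled. The summed level of these activator genes was 1.47-fold higher in H596, while that of phosphofructokinase 1 was 1.83-fold lower.

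Aldolase splits the sugar, and triosephosphate isomerase interconverts the products. ALDOA, the main aldolase in both lines, was at 1049.8 FPKM in H2087 and 582 FPKM in H596, a difference of -0.85. ALDOC, the brain-type aldolase, was at 57.2 FPKM in H2087 (4523 counts, 55.5 to 58.8) and at 12.1 FPKM in H596 (1138 counts, 11.5 to 12.9), 4.71-fold lower. TPI1 was at 564 FPKM in H2087 (36652 counts, 558 to 569) and at 259 FPKM in H596 (19971 counts, 255 to 263), 2.18-fold lower. The minor aldolase differed more than the major form, so that ALDOA was 18.4 times the level of ALDOC in H2087 and 47.9 times in H596.

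The energy-yielding steps held the most abundant genes. GAPDH, whose product makes NADH and which is widely used as a reference gene, was at 3972 FPKM in H2087 (266975 counts, 3957 to 3987) and at 1355 FPKM in H596 (107733 counts, 1347 to 1363), 2.93-fold lower. It ranked 2 among all genes in H2087 and 17 in H596, so values expressed relative to GAPDH would carry this difference between the lines. ENO1, the main enolase, was at 2125 FPKM in H2087 (223196 counts, 2117 to 2134) and at 748 FPKM in H596 (93024 counts, 743 to 753), 2.84-fold lower, and ranked 21 and 53. ENO2, the enolase of neurons and neuroendocrine cells, was at 21.3 FPKM in H2087 (2477 counts, 20.5 to 22.2) and at 1.40 FPKM in H596 (193 counts, 1.22 to 1.62), 15.2-fold lower with an interval of 13.1 to 17.7. ENO1 was 99.7 times the level of ENO2 in H2087 and 533 times in H596.

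The other genes of lower glycolysis stayed under 2-fold. PGK1, which yields the first ATP, was at 239 and 149 FPKM. PGAM1, the mutase that follows, was at 198 and 104 FPKM, and BPGM, known for the regulator of hemoglobin that it makes in red cells, was at 5.62 and 6.19 FPKM. PKM, which yields the last ATP, was at 947 and 592 FPKM. PGK1, PGAM1 and PKM were therefore lower in H596 by 1.61, 1.90 and 1.60 times, and the sign of the BPGM difference of 0.12 depended on the scaling.

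Taken step by step, all 10 core steps from hexokinase to pyruvate kinase had a lower summed level in H596. The folds ran from 1.49 at phosphoglucose isomerase to 2.93 at GAPDH with a median of 1.88, and 4 steps (hexokinase, triosephosphate isomerase, GAPDH and enolase) were at least 2-fold lower. The step sums cover the 42 listed genes only, and no matching share of such sums over all genes was computed. Of all tested genes at a mean of 100 FPKM or more, 62.9% lay below 0 and 22.5% were at least 2-fold lower. The phosphofructokinase 1 sum was lower although PFKL, its leading gene in H596, was higher there (70.7 and 84.8 FPKM).

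Lactate dehydrogenase stands at the branch between lactate and mitochondrial oxidation. LDHA, the muscle-type subunit that favours lactate formation, was at 713 FPKM in H2087 (75342 counts, 708 to 718) and at 245 FPKM in H596 (30604 counts, 242 to 248), 2.91-fold lower. LDHB, the heart-type subunit, was at 535 FPKM in H2087 (34046 counts, 529 to 540.4) and at 170.1 FPKM in H596 (12714 counts, 167 to 173), 3.14-fold lower. The subunits differed by nearly the same factor, and the ratio of LDHA to LDHB was 1.33 in H2087 and 1.44 in H596.

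Lactate leaves through monocarboxylate transporters. SLC16A3, the low-affinity exporter of glycolytic cells, was at 60.0 FPKM in H2087 (5902 counts, 58.5 to 61.6) and at 16.8 FPKM in H596 (1955 counts, 16.1 to 17.6), 3.57-fold lower. SLC16A1, which works in both directions, was at 37.0 FPKM in H2087 (6959 counts, 36.2 to 37.9) and at 15.3 FPKM in H596 (3403 counts, 14.8 to 15.9), 2.42-fold lower. Summed lactate dehydrogenase and summed monocarboxylate transport thus differed by similar factors, 3.01 and 3.02. BSG, the chaperone both transporters need, was at 516 and 382 FPKM.

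In the pentose phosphate pathway, 2 of the 4 listed genes that rearrange sugars were at least 2-fold lower in H596. TKT, transketolase, was at 613 FPKM in H2087 (71689 counts, 608 to 617) and at 289 FPKM in H596 (37052 counts, 286 to 292), 2.12-fold lower. RPIA, the isomerase that makes ribose phosphate, was at 43.4 FPKM in H2087 (3817 counts, 42.1 to 44.8) and at 10.9 FPKM in H596 (1134 counts, 10.3 to 11.5), 3.99-fold lower. RPE, the epimerase, was at 32.5 and 17.1 FPKM and TALDO1, transaldolase, at 202 and 149 FPKM. These 4 nonoxidative genes summed to 891 FPKM in H2087 and 467 FPKM in H596, 1.91-fold lower.

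The oxidative genes listed differed in opposite directions, both by less than 2-fold. PGLS, the lactonase, was at 47.2 and 65.9 FPKM (0.47 on the log2 scale), and PGD, the NADPH-producing dehydrogenase, was at 109 and 67.8 FPKM (-0.68). Their sums were 156 and 134 FPKM. The phosphoglucomutases, which connect glucose phosphate with glycogen and pentoses, were 1.26-fold higher in sum in H596, with PGM1 at 31.2 and 42.7 FPKM and PGM2 at 20.8 and 22.9 FPKM.

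The pyruvate dehydrogenase complex differed little in sum, 141 and 116 FPKM. Its acetyltransferase core subunit DLAT was at 47.3 FPKM in H2087 (9853 counts, 46.4 to 48.2) and at 22.6 FPKM in H596 (5578 counts, 22.03 to 23.2), 2.09-fold lower and the closest of the 19 genes to the threshold at -1.03. The subunits of the first enzyme differed in opposite directions, PDHA1 at 30.2 and 42.4 FPKM and PDHB at 36.4 and 24.2 FPKM. DLD, the lipoamide dehydrogenase shared with other complexes, was at 27.4 and 26.5 FPKM, a difference of -0.05 whose sign depended on the scaling.

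The kinases that inhibit the complex differed in make-up. PDK1, a target of hypoxia-inducible factor, was at 11.95 FPKM in H2087 (2219 counts, 11.5 to 12.5) and at 1.505 FPKM in H596 (386 counts, 1.36 to 1.66), 7.94-fold lower with an interval of 7.13 to 8.87. PDK3 was at 4.76 FPKM in H2087 (1824 counts, 4.55 to 4.99) and at 1.45 FPKM in H596 (684 counts, 1.34 to 1.56), 3.29-fold lower. PDK2, the widely expressed form, went the other way, at 6.71 and 11.2 FPKM, 1.67-fold higher with an interval of 1.53 to 1.82. PDK4, known from fasting and fat oxidation, did not pass the filter, with 0.976 FPKM (174 counts) in H2087 and 0 counts in H596, at least 68.4-fold lower as a share of counts against a limit of 3 counts per library.

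Of the summed kinase level, 24.4 FPKM in H2087 and 14.1 FPKM in H596, PDK1 made up 49.0% in H2087 and 10.6% in H596. PDK2 made up 27.5% and 79.1%, PDK3 19.5% and 10.2%, and PDK4 4.0% and 0%. By the single highest transcript of each gene, PDK2 led in both lines. By estimate, the highest PDK1 transcript in H2087 was noncoding, NR_103729 at 5.89 FPKM, so the PDK1 share there may not be all coding. Over the 10 steps with several listed isozymes, the leading gene was the same in both lines in 8, and phosphofructokinase 1 and pyruvate dehydrogenase kinase were the steps where it differed.

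**Figure D3:**
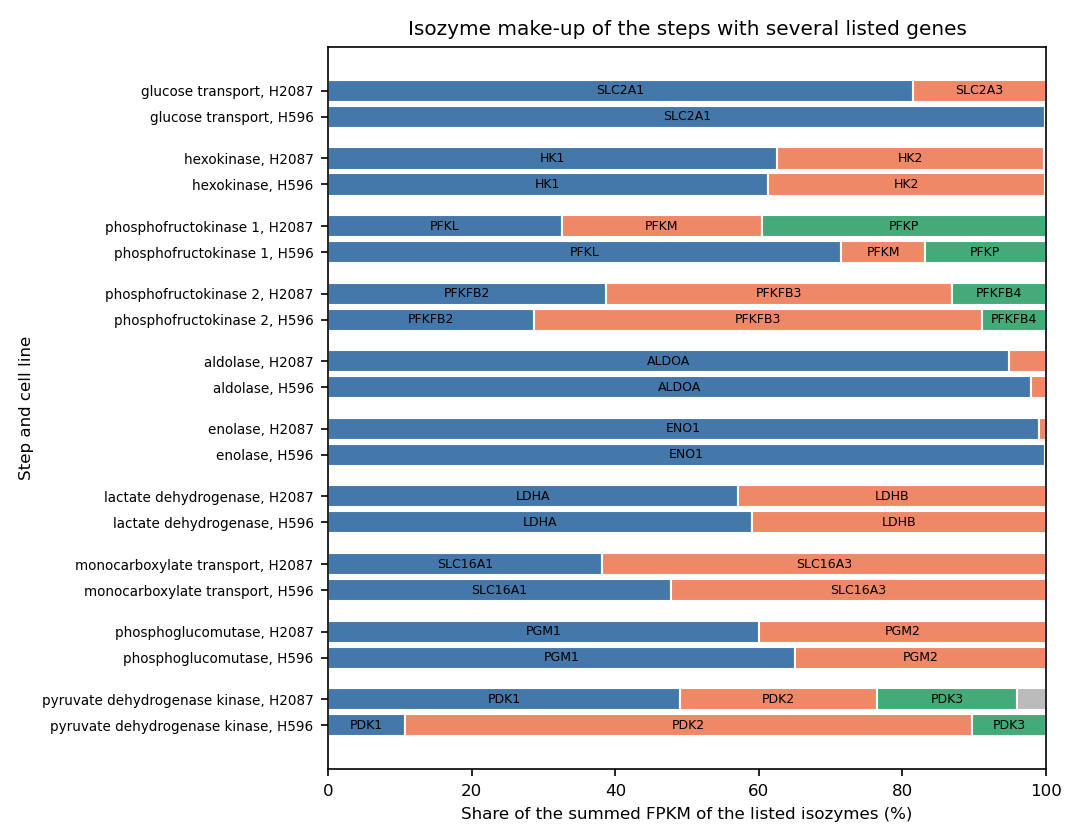
Share of each isozyme in the summed FPKM of its step (%), for the 10 steps with several listed genes, with the H2087 library above the H596 library in each pair. The largest change of make-up is in phosphofructokinase 1 (PFKL 32.5% and 71.5%) and pyruvate dehydrogenase kinase (PDK2 27.5% and 79.1%), while hexokinase (HK1 62.5% and 61.2%) and lactate dehydrogenase (LDHA 57.2% and 59.0%) were similar in make-up.

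The transcript table divided the reads of each gene among its RefSeq transcripts by estimation, with no error given. It listed 8 transcripts of PKM. Transcripts were assigned to M1 or M2 by their RefSeq identifiers. The deposited data give no exon structure, so the exons printed above were not matched to them. The M2 transcript NM_002654 was at 346 FPKM in H2087 and 227 FPKM in H596, 36.5% and 38.3% of the gene. The M1 transcripts NM_182470 and NM_182471 summed to 131 and 101 FPKM, 13.8% and 17.1%. The ratio of M2 to M1 was 2.65 in H2087 and 2.24 in H596, and the other 5 transcripts, with 49.7% and 44.6% of the gene, were assigned to neither form.

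Of the 29 genes with several listed transcripts, 9 had a transcript that held at least 20% of the gene in either line and differed in share by at least 20 percentage points. LDHB NM_001315537 held 51.0% of the gene in H2087 and 1.08% in H596, while NM_002300, of the same length (1316 bases), held 43.4% and 98.4%. GPI NM_000175 held 19.3% and 93.1%, and NM_001329909 23.4% and 0.601%. PFKP NM_002627 held 25.9% and 91.4%, and NM_001323069 27.7% and 5.79%. In these genes the estimate gave nearly all of the H596 signal to a single transcript and spread the H2087 signal over several.

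PFKFB3 NM_001145443 held 55.3% and 4.03%, and NM_004566 44.6% and 85.9%. TKT NM_001064 held 58.6% and 82.8%, with NM_001135055 at 35.0% and 11.9%. ALDOA NM_184041 held 64.8% and 89.2%. These too were more concentrated in H596. PDK1 NM_002610, a coding transcript, held 31.5% and 66.7%, and NR_103729, a noncoding transcript, 49.3% and 0%.

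In DLD and PDHB the shares went the other way. DLD NM_000108 held 99.2% in H2087 and 49.8% in H596, where NM_001289751 and NM_001289752 held 25.9% and 24.3%. PDHB NM_000925 held 66.5% and 16.0%, and the noncoding NR_033384 7.10% and 55.5%. For PDHB, the estimate thus gave most of the gene value in H596 to a transcript without a coding sequence.

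**Figure D4:**
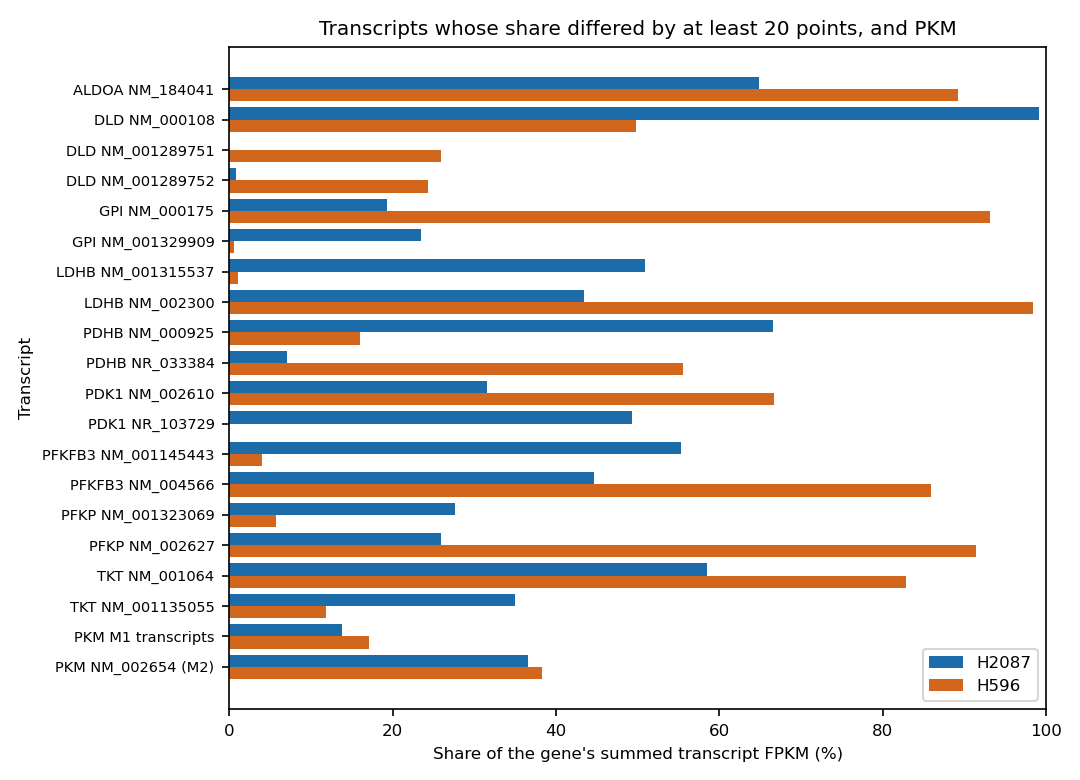
Share of a transcript in the summed transcript FPKM of its gene (%), in H2087 (blue) and H596 (orange), for the transcripts of the 9 genes whose share differed by at least 20 percentage points and for the M1 and M2 transcripts of PKM. LDHB, GPI and PFKP each have 1 transcript that holds most of the gene in H596 (98.4%, 93.1% and 91.4%), while the PKM forms differ little (M2 36.5% and 38.3%).

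Promoters were examined because so many of the genes were lower together. RefSeq promoters of 300 bases (GRCh38.p14, 250 before and 50 from the start) were matched for 39 of the 42 genes, with 70 promoters in all; SLC2A3, PFKFB2 and SLC16A1 had no entry. The letters ACGTG or GCGTG, the core of the hypoxia response element, were searched on both strands. They were found in 43 of the 70 promoters (61.4%) and in 48.4% of all 35116 promoters of the table. The E-box CACGTG, which contains that core on both strands, was found in 9 (12.9%) and in 7.26% of all. Some promoters of a gene overlap, as in HK1 and PFKM, so the 70 are not independent. Base composition was not matched, and the differences in share were not tested.

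By gene, 16 of the 17 matched genes that were at least 2-fold lower held the core in a promoter, TKT being the exception, and 4 held the E-box. Of the 20 matched genes within 2-fold, 16 held the core and 5 the E-box. A gene with several promoters has more chances to hold a match. The share of all genes with the core in any promoter was not computed. The 48.4% above is per promoter, so it is no background for these counts by gene. The 3 promoters shown have many matches: those of LDHA and ALDOC, which were at least 2-fold lower, and that of PDHB, which was not. Capitals mark the matched letters.
LDHA promoter, chr11:18394313-18394612 of GRCh38.p14, plus strand: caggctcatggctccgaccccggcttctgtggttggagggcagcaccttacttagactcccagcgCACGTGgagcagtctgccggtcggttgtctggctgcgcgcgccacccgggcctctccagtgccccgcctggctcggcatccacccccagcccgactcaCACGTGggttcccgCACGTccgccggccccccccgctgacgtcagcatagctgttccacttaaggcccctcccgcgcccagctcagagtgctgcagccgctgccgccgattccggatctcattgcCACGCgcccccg
ALDOC promoter, chr17:28576846-28577145 of GRCh38.p14, minus strand: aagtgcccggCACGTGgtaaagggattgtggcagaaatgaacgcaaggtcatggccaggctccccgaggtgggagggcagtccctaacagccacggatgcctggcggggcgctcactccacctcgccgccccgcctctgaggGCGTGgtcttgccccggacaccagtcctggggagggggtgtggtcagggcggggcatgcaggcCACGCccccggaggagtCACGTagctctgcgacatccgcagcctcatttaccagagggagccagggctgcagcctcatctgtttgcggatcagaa
PDHB promoter, chr3:58433783-58434082 of GRCh38.p14, minus strand: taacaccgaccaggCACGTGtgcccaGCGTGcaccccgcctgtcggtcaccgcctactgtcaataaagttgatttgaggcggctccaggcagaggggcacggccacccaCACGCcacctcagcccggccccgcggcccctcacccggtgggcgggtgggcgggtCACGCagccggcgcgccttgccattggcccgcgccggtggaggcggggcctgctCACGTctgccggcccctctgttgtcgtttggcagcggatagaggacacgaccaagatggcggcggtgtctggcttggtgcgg

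LDHA had 6 matches counted over both strands, 2 E-boxes among their positions, ALDOC 5 with 1 E-box and PDHB 6 with 1 E-box. These promoters were picked for their matches, so the numbers say nothing of the difference between the lines. A match is a run of letters only, and no binding was measured here.

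The 19 lower genes lay on 8 chromosomes, in the hg19 positions of the deposited table. All 6 of the listed genes on chromosome 12 were among them. The share of all tested genes of chromosome 12 that were 2-fold lower was not computed, so this count has no background. GAPDH (chr12:6643571-6647541), TPI1 (chr12:6976584-6980110) and ENO2 (chr12:7023614-7032859) span 389 kb of the short arm, and SLC2A3 (chr12:8071824-8088892), LDHB (chr12:21788276-21810789) and PFKM (chr12:48499656-48540187) lie farther along. Without these 6 genes, 13 of 34 were at least 2-fold lower, beside 14.2% of all tested genes, and the median was -0.68.

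The 40 nearest tested genes were taken as the neighbours of each gene. Around GAPDH, TPI1 and ENO2 their median difference was -0.12, around SLC2A3 -0.33, around LDHB 0.18 and around PFKM -0.72. Over the 19 lower genes the neighbour medians ran from -0.74 to 0.76, with a median of -0.12. Over the other genes that passed the filter they ran from -0.61 to 0.68, with a median of 0.11. On chromosome 10, PFKP and PFKFB3 share a neighbourhood with a median of -0.61 and differed by -2.05 and 0.88. The copy number of these regions was not measured here.

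Other genes of the same pathways were listed for comparison. Of 51 such genes, 34 passed the filter, of which 5 were at least 2-fold higher in H596 and 4 lower, with a median difference of -0.10. Over all tested genes, 18.2% were at least 2-fold higher and 14.2% lower, so these counts were near the background. The glucose-responsive genes were both higher. TXNIP, an arrestin-like protein that restrains glucose uptake, was at 86.6 and 431 FPKM (2.30), and its relative ARRDC4 was at 1.08 and 14.2 FPKM (2.87). The other higher genes were the fructose transporter SLC2A5, with 0 counts in H2087 and 3.24 FPKM in H596, SLC2A8 at 3.74 and 9.27 FPKM, and H6PD, a pentose phosphate enzyme of the endoplasmic reticulum, at 5.15 and 12.7 FPKM.

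FBP1, which opposes phosphofructokinase 1 in gluconeogenesis, was at 23.2 FPKM in H2087 and 0.199 FPKM in H596 (-4.34). The testis-type isozymes GAPDHS and LDHC, at 6.34 and 3.38 FPKM in H2087, had 0 counts in H596. PDP2, a phosphatase that reactivates pyruvate dehydrogenase, was at 7.32 and 1.78 FPKM. FBP1 was thus lower together with the glycolytic genes rather than higher.

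Several genes that flank the pathway were under 2-fold. The mitochondrial pyruvate carrier subunits differed in opposite directions, MPC1 at 20.4 and 10.7 FPKM and MPC2 at 15.3 and 30.2 FPKM. PCK2, the mitochondrial carboxykinase, was at 56.5 and 60.1 FPKM, and G6PC3, a glucose phosphatase, at 30.8 and 23.1 FPKM. None of the 8 glycogen genes passed 2-fold, with PYGL, the liver-type phosphorylase, at 99.8 and 89.5 FPKM, PYGB, the brain type, at 40.9 and 22.9 FPKM, and UGP2, which makes UDP-glucose, at 57.2 and 75.4 FPKM. By list, the median difference was -0.47 for the 4 gluconeogenesis genes that passed the filter, -0.57 for the 6 genes of pyruvate entry and dehydrogenase regulation, -0.20 for the glycogen genes and 0.21 for the 8 isozymes of other tissues.

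Since many glycolytic genes are known targets of hypoxia-inducible factor, 8 hypoxia response genes outside the pathway were read in the same libraries. Of the 6 that passed the filter, 2 were at least 2-fold lower, BNIP3, a mitophagy receptor, at 86.8 and 6.34 FPKM, and EGLN3, an oxygen sensor, at 10.7 and 4.12 FPKM. The other called genes were higher, ADM, a vasodilator peptide, at 0.772 and 68.4 FPKM and NDRG1, a stress-response protein, at 38.6 and 109 FPKM. VEGFA, the angiogenic factor, was at 52.7 and 41.8 FPKM and KDM3A, a histone demethylase, at 13.3 and 12.2 FPKM. Of the 6, 4 lay below 0, with a median of -0.22, and all 8 summed to 204 and 242 FPKM. Over all tested genes, 14.2% were at least 2-fold lower and 18.2% higher, and 6 genes are too few to set against these shares. CA9 and ANKRD37 were under the filter. The part of the list in the difference of the pathway genes was not tested.

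The cell lines also differed in lineage markers. Of 8 gland markers, 5 of the 6 that passed the filter were at least 2-fold lower in H596, and all 8 summed to 7398 and 1443 FPKM. NKX2-1, the lung lineage factor, was at 110.0 and 0.508 FPKM and NAPSA at 21.9 and 0.0645 FPKM, while SFTPB and SFTPC were near 0 in both. The epithelial members of the list stayed detectable in H596, KRT7 at 791 and 608 FPKM, KRT8 at 2493 and 536 FPKM, KRT18 at 3607 and 234 FPKM and EPCAM at 375 and 65.0 FPKM. Of 6 squamous markers, all 5 that passed the filter were higher in H596. The 6 summed to 1.94 and 3808 FPKM, and most of the H596 sum was KRT13 (0.281 and 3558 FPKM). TP63 was at 0.183 and 55.2 FPKM and KRT6A at 1.48 and 53.7 FPKM. KRT5 and DSG3 had 0 counts in H2087 and were at 106 and 33.9 FPKM in H596. KRT14 was under the filter, with 0 counts in H2087 and 1.33 FPKM in H596.

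By NKX2-1, NAPSA and the squamous markers the H596 library goes against its adenocarcinoma label, while KRT7, KRT8, KRT18 and EPCAM were present in it. Markers of stroma summed to 3.90 and 10.7 FPKM, nearly all of it COL1A1 in H2087 (3.89 and 0.916 FPKM) and DCN in H596 (0 counts and 9.77 FPKM), and those of endothelium summed to 0.106 and 0.489 FPKM. Those of red cells and PTPRC, the general leukocyte marker, were at 0, and CD68, a lysosomal protein of macrophages and other cells, was at 128 and 25.6 FPKM. The part of the lineage difference in the pathway result was not tested, and cell line and lineage cannot be told apart with 1 line of each kind.

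Some values rest on how reads were divided. PGAM4 is a near copy of PGAM1 and was listed at 375 and 247 counts, and the copies TPI1P2, TPI1P3 and PGAM1P5 held at most 95 counts in any library. SLC2A14, a near copy of SLC2A3, was listed at 0 counts in both libraries. The library kit keeps strand, but whether the counting used it is not stated, so genes that overlap others are uncertain.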

How the data were processed

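RNA-seq data of 2 libraries were used, 1 per cell line. Per the labels, total RNA was isolated with TRIzol and stranded mRNA libraries were prepared; the submitters' processing notes name bcl2fastq 1.8.4, Trimmomatic, HISAT2 2.0.5 and StringTie 1.3.3b, with hg19. For each gene and transcript the authors deposited an estimated count, a whole number, beside an FPKM value, which is scaled to length and depth; transcript lengths, also deposited, are in bases. Whether the reads were paired is not given in the sources used here; counting both mates would make the intervals too narrow.

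Values of log2(FPKM + 1) in H2087 were subtracted from those in H596 for genes reaching a mean of 1 FPKM, with 2-fold as the threshold; this scale understates the change of low genes. Scaling was as deposited, and the median of all tested genes, 0.12, is the shift to read differences against. Wilson intervals of count shares and exact conditional intervals of count ratios (95%) came from scipy 1.17.1 and were checked on simulated data; the limit for a count of 0 was 3 counts. Alternatives were a pseudocount of 0.1, a filter at a mean FPKM of 10 and none, TMM (edgeR 4.0.16, R 4.3.3), TPM, centring, transcript sums and a fold of 1.5. Gene positions are those deposited (hg19), PKM exons are from GENCODE on GRCh37, and promoters from RefSeq on GRCh38.p14. All 42 genes were named, and the transcripts by the rule given with them. The genes and the lists were chosen with earlier results of these data known, and the pathway and marker lists support nothing on their own. Tables were handled in Python 3.11.15 with pandas 2.3.3 and numpy 2.4.6.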

Additional observations from a re-analysis of the deposited data

How the results depend on the processing

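The number of genes at least 2-fold lower in H596 was 19 as reported, 22 with TMM-scaled counts, 21 with centring and 16 in TPM, and it was 6 of 11 at a mean FPKM of at least 100, chosen after seeing the data. The number at least 2-fold higher was 0 as reported and 1 in TPM (PFKFB3, 1.08 on the log2 scale), beside 18.2% and 24.6% of all tested genes. At a fold of 1.5, 2 were higher and 25 lower, beside 30.6% and 24.0% of all tested genes. The median difference was -0.90 as reported, -1.06 with TMM, -1.02 with centring, -0.73 in TPM and -0.68 without chromosome 12, also chosen after seeing the data. The median of all tested genes was 0.12 as reported, 0.01 with TMM and 0.30 in TPM. The share of them 2-fold lower was 14.2%, 17.4% and 12.9% in the same order. It was 16.2% with centring, and 22.5% among genes at a mean FPKM of at least 100. Of 95 values recomputed for the 19 lower genes, 92 stayed past 2-fold and 0 changed direction. Most of these values could not have failed, so the count is no measure of robustness. Transcript sums matched the gene values, and a smaller pseudocount or centring can only make a lower gene lower still. In TPM, DLAT, TKT and TPI1 of the 19 were under 2-fold (-0.87, -0.90 and -0.94). BPGM, DLD, PFKFB2 and PFKFB4 changed sign under a scaling. The leading isozyme was the same in 7 of 10 steps by counts and in 8 by single transcripts, where the steps that differed were PFKFB and monocarboxylate transport.

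No paired analysis was possible because there was 1 library of each line and no test was made, and leaving out a library would leave no comparison. Depth limits HKDC1, PDK4 and SLC2A3 in H596, with 14, 0 and 8 counts.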

Other observations

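Nuclear genes of oxidative phosphorylation, a list of 76 chosen after their values were seen, had a median difference of -0.38, with 52 of the 76 below 0. Genes at a mean of 100 FPKM or more had a median of -0.30. Of the list, 8 genes were at least 2-fold lower in H596 and 2 higher, no larger a share than the 14.2% and 18.2% of all tested genes. The lower genes include COX7C, a subunit of the terminal oxidase, at 723 and 226 FPKM (-1.67), and ATP5B, the catalytic subunit of ATP synthase, at 741 and 297 FPKM (-1.32). SDHA, the flavoprotein of succinate dehydrogenase, was at 69.2 and 219 FPKM (1.65), and UQCRFS1, the iron-sulfur protein of the cytochrome bc complex, was at 31.8 and 90.3 FPKM (1.47); these were the 2 higher genes. The summed level of the list was 10753 FPKM in H2087 and 8325 FPKM in H596.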
